A study of Mus musculus with 9 samples.

Results

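Gene expression in the brain was compared between mice given febuxostat before an intracerebral hemorrhage (feb group) and mice with the hemorrhage alone (ICH group), 3 mice in each, which are 6 of the 9 mice sequenced. Genes were described when their RPKM was at least 1 in at least 3 of these 6 mice and their exons covered at least 300 bases, which held for 16140 of the 38621 genes in the table. RPKM scales the reads on a gene to the length of its exons and to all reads counted in the mouse, so levels of different genes can be set side by side. All mice were male C57BL/6. In both groups 30 μl of the animal's own blood was injected into the brain, and the feb mice had been dosed by gavage with 50 mg/kg febuxostat on each of the 5 days before it. The third group, called sham in the paper, is given beside them as the level without blood. The labels call these mice untreated and the paper describes a saline injection. Neither the part of the brain taken for RNA nor the time after the injection is named in the sources used here, no gavage of the ICH mice is described, and no group received febuxostat without blood, so an effect of the drug on the uninjured brain and an effect on the hemorrhage cannot be told apart.

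Febuxostat inhibits xanthine oxidase, the product of Xdh, which oxidizes hypoxanthine and xanthine to uric acid and releases reactive oxygen species in doing so. In ICH, blood in the tissue presses on and kills neurons, and the lysis of red cells frees hemoglobin, heme, and iron. Microglia and astrocytes react, the blood-brain barrier loosens, and leukocytes enter from the blood. A bulk RNA library mixes all these cells, and in it fewer cells of a type and less RNA per cell cannot be told apart.

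Between 23065757 and 26473236 reads per mouse were counted on genes in the 6 mice, of which at least 94.42% fell on the described genes, with a median of 400 to 465 reads per described gene. Markers of the main cell types of brain tissue were present in all 6 mice. The neuronal gene Snap25 was at 201 to 242 RPKM, the myelin gene Mbp at 151 to 263, the astrocyte gene Aqp4 at 18.8 to 48.2, the microglial gene Cx3cr1 at 4.26 to 10.1, and the alpha-globin gene Hba-a1 at 3.79 to 34. The first principal component of the described genes held 35.6% of the variance of the 6 mice and put the ICH mice between -38.26 and -3.425 and the feb mice between 13.39 and 23.41. Some libraries stood apart within their group. ICH 2 had the highest reactive astrocyte and cell division genes, ICH 1 the highest globin genes, feb 2 the lowest glucocorticoid-responsive genes of the feb group, and the genes of brain regions varied severalfold among mice of the same group. For several lists that rest on these mice, results are also given without them.

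A total of 2091 described genes had an unadjusted p under 0.05 in limma, 774 higher in the feb group (4.80% of the described genes) and 1317 lower (8.16%). Among them 120 (0.743%) met the criteria for DEGs, an unadjusted p under 0.05 and a fold change over 2, with 42 higher (0.260%) and 78 lower (0.483%). The 3 feb values lay all above the 3 ICH values in 1193 genes (7.39%) and all below them in 2186 (13.5%). No described gene (0) passed a Benjamini-Hochberg adjusted p of 0.05 in limma, and none did with voom on the recovered reads, so "rose" and "fell" stand below for an unadjusted limma p under 0.05, and adjusted p-values are given over all genes tested. The median gene was 0.04 lower in the feb group on the log2 scale. With the 6 mice set to equal medians, 1128 genes were higher and 914 lower, so the share of higher genes was 55.2% in place of 37.0%. The genes are described below by lists of cell type markers and pathways, and each count in a list can be read against these percentages.

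**Figure D1:**
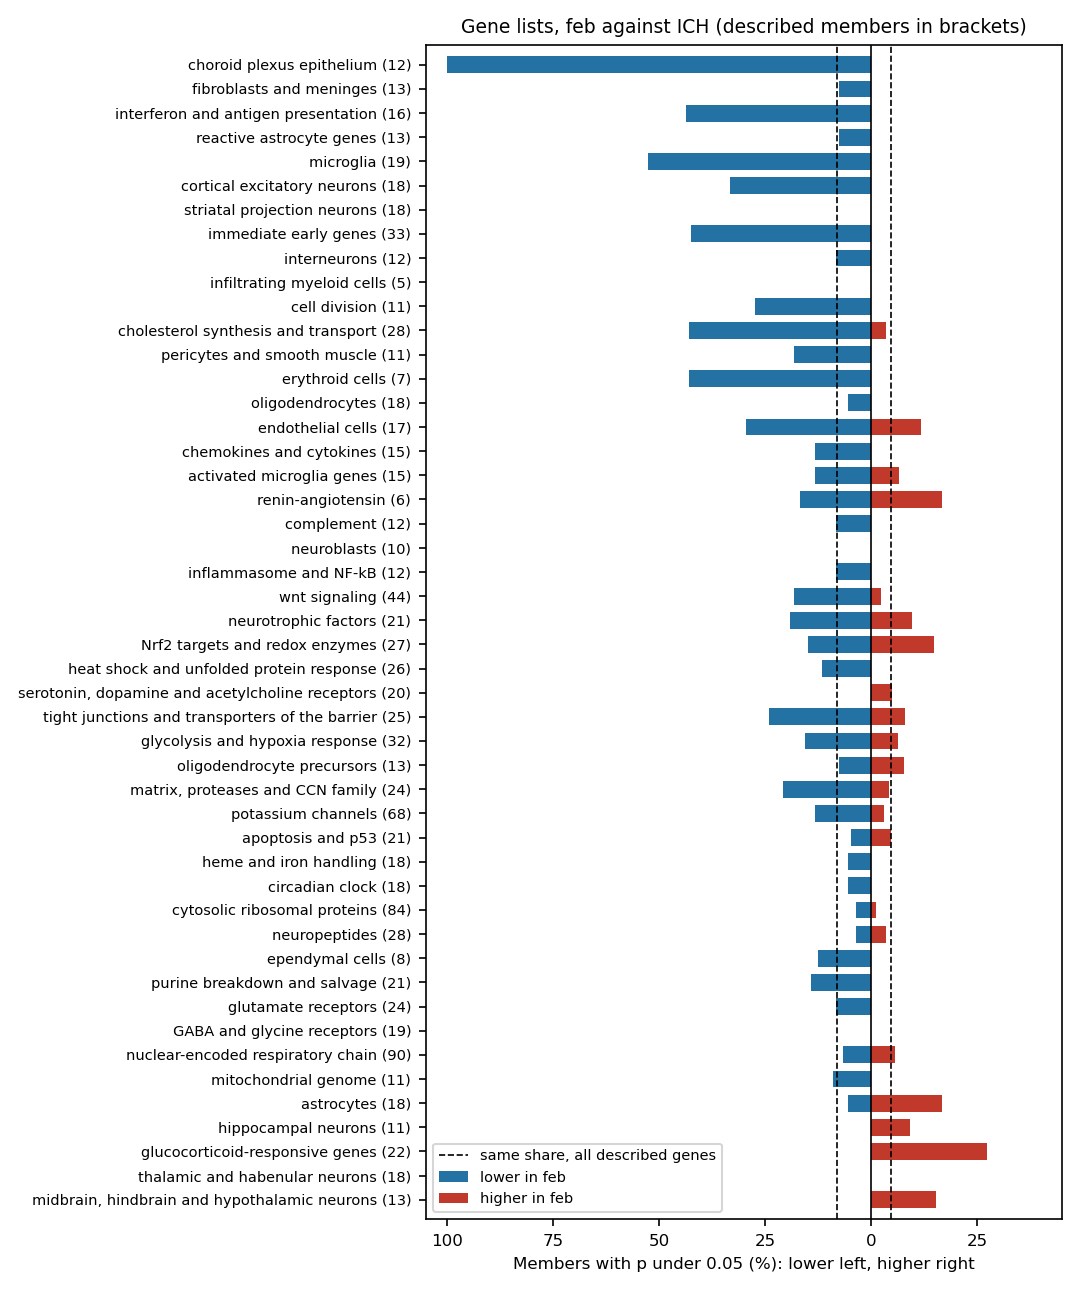
Share of the described members of each gene list, in percent, with an unadjusted limma p under 0.05, drawn to the left for members lower in the feb group than in the ICH group and to the right for members higher, with the number of described members in brackets. The dashed lines mark the shares over all described genes, 8.16% lower and 4.80% higher, and the bar of the choroid plexus list holds 12 members, 7 of them described through the ICH mice alone.

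Genes of the choroid plexus epithelium were lower in the feb group. This epithelium lines the plexuses of the ventricles, secretes cerebrospinal fluid, and forms the barrier between blood and that fluid. Of its 18 markers, 12 were described, and of these 7 (Kcne2, F5, Folr1, Slc4a5, Kl, Sostdc1, and Calml4) reached the limit of 1 RPKM in the 3 ICH mice alone, so that they had to differ and their falls are given as a description. The other 5, Ttr, Enpp2, Sulf1, Clic6, and Kcnj13, also fell, with a median log2 difference of -1.36 against -0.04 over all described genes. These 5 had no overlap between the groups, and all but Kcnj13 were DEGs. All 5 still passed when any 1 of the 6 mice was left out and under every other setting tried. The summed level of all 18 markers was 960, 1108, and 564 RPKM in ICH mice 1, 2, and 3. It was 60.3, 101, and 117 RPKM in feb mice 1, 2, and 3, beside 1178, 435, and 969 RPKM in the sham mice. The feb mice thus lay below both other groups, and the ICH mice lay within the range of the sham mice. Values of a group are given in the order of its mice 1 to 3 from here on.

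Ttr, the gene of the thyroxine and retinol carrier transthyretin, was the most abundant of the 12, at 808, 938, and 437 RPKM in the ICH mice and 24.2, 50.4, and 78.1 RPKM in the feb mice, 14.3-fold lower by the means (log2 fold change -3.92, SE 0.52, adjusted p = 0.105). The sham mice had 1005, 350, and 817 RPKM of Ttr. Genes of secreted and membrane proteins of the epithelium are given next as a description. Folr1, Kcne2, Slc4a5, F5, Kl, and Sostdc1 were all described through the ICH mice alone, so they had to be lower in the feb mice. Folr1, the receptor that carries folate into cerebrospinal fluid, was at 2.81, 4.5, and 1.55 RPKM in the ICH mice and 0.263, 0.328, and 0.226 RPKM in the feb mice, which is 10.8-fold lower. Kcne2, a potassium channel subunit of the apical membrane, fell from 4.02, 4.13, and 3.52 RPKM to 0.15, 0.291, and 0.613 RPKM, and Slc4a5, a sodium bicarbonate cotransporter, from 1.83, 1.43, and 1.03 RPKM to 0.0781, 0.116, and 0.344 RPKM. The gene of coagulation factor V, F5, was at 4.08, 6.18, and 2.64 RPKM in the ICH mice and 0.351, 0.389, and 0.584 RPKM in the feb mice (log2 fold change -2.97, SE 0.37, adjusted p = 0.0832). Kl, which encodes the anti-aging hormone klotho, fell by 2.19 on the log2 scale, and Sostdc1, a secreted antagonist of BMP and wnt ligands, fell by 1.93.

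Enpp2 encodes autotaxin and is expressed by oligodendrocytes as well. It was at 103, 113, and 91.6 RPKM in the ICH mice and 22.5, 38.2, and 20.7 RPKM in the feb mice, 3.78-fold lower. Clic6 fell by 1.16, Calml4 by 1.23, Sulf1 by 1.36, and Kcnj13 by 0.76 on the log2 scale. Each of their feb values lay under every ICH value, as the limit required of Calml4. The 6 members that were not described (Aqp1, Prlr, Cldn2, Otx2, Steap1, and Tmem72) were too low for the limit and also had each feb value under each ICH value. Cldn2, a pore-forming claudin of this epithelium, was at 1.5, 2.47, and 0.769 RPKM in the ICH mice and 0.17, 0.0953, and 0.13 RPKM in the feb mice, while Otx2, the transcription factor of the choroid plexus lineage, was at 1.03, 0.772, and 0.866 RPKM against 0.712, 0.7, and 0.523 RPKM. The gene with the lowest adjusted p in the comparison, 1500015O10Rik, is not on the list. It was at 3.8, 4.13, and 2.84 RPKM in the ICH mice and 0.377, 0.571, and 0.577 RPKM in the feb mice (log2 fold change -2.60, SE 0.28, adjusted p = 0.0542), and it encodes augurin, a secreted peptide precursor known from the choroid plexus. Krt18, a keratin of simple epithelia, went from 2.68, 4.1, and 1.8 RPKM to 0.998, 0.424, and 0.557 RPKM. Both genes were described through the ICH mice alone, so their differences add no count to those of the list.

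Ependymal cells, the ciliated cells that line the same ventricles, had a median log2 difference of -0.06 against -0.04 over all described genes. Of 15 markers 8 were described, 1 fell and 0 rose. Foxj1, the master regulator of motile cilia, was at 3.58, 4.13, and 4.09 RPKM in the ICH mice and 4.44, 4.3, and 3.04 RPKM in the feb mice. The member that fell, Rsph1, part of the radial spoke of the axoneme, went from 9.26, 8.75, and 8.4 RPKM to 7.3, 7.04, and 6.52 RPKM. Whether the amount of choroid plexus in the dissected tissue differed between the groups was not tested.

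**Figure D2:**
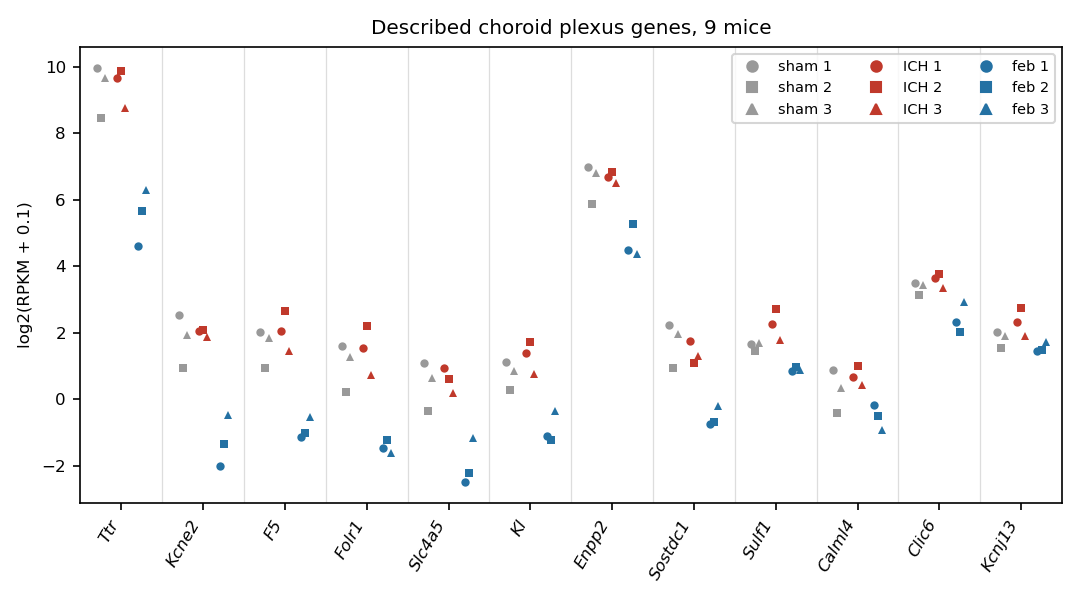
Level, as log2(RPKM + 0.1), of the 12 described choroid plexus epithelium genes in each mouse of the sham, ICH, and feb groups (points, 3 mice per group). For every gene the 3 feb points lie under the 3 ICH points, which the limit of 1 RPKM fixed for 7 of the 12. For Ttr the feb mice sit between 24.2 and 78.1 RPKM against 437 to 938 RPKM in the ICH mice.

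Microglial genes were lower in the feb group. All 19 microglial markers were described, all 19 had a log2 difference under 0 (median -0.54), 10 fell, 3 of them as DEGs, 0 rose, and 9 had no overlap between the groups. Aif1, which encodes the calcium-binding protein IBA1, was at 4.67, 8.07, and 4.31 RPKM in the ICH mice and 3.01, 2.74, and 2.29 RPKM in the feb mice (log2 fold change -1.01, adjusted p = 0.259), beside 3.29, 4.47, and 3.37 RPKM in the sham mice. P2ry12, the purine receptor that steers microglial processes, fell from 4.91, 4.26, and 4.62 RPKM to 2.89, 3.75, and 2.11 RPKM, and the fractalkine receptor gene Cx3cr1 from 7.62, 10.1, and 6.14 RPKM to 5.88, 4.26, and 4.42 RPKM. The others that fell included Siglech, Gpr34, Tmem119, Fcrls, Selplg, and Olfml3, with log2 differences between -1.11 (Olfml3) and -0.54 (Selplg). Homeostatic surface genes thus made up most of those that fell. The genes of the complement component C1q, which activated and resting microglia both express at high levels, overlapped between the groups, with C1qa at 20.4, 37.4, and 15 RPKM in the ICH mice and 25.9, 11.2, and 20.8 RPKM in the feb mice. ICH 2 had the highest value in several of these genes (Fcrls 15.5 RPKM, Olfml3 8.18 RPKM), and without it 7 members fell, 0 of them as DEGs, with a median of -0.34. Without feb 3 the number was 6, again with 0 DEGs, and without ICH 3 it was 15. With a pseudocount of 1, 10 fell and 0 were DEGs.

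Genes of the interferon response and of antigen presentation moved in the same direction. All 16 described members of 28 had a log2 difference under 0 (median -0.59), 7 fell, 2 of them as DEGs, and 0 rose. Ifi27, an interferon-induced mitochondrial protein gene, was at 6.4, 8.97, and 4.97 RPKM in the ICH mice and 2.21, 3.56, and 2.9 RPKM in the feb mice (log2 fold change -1.19, adjusted p = 0.219), and 5.08, 3.83, and 4.53 RPKM in the sham mice. B2m, the light chain of MHC class I, fell from 17.6, 16.6, and 12.9 RPKM to 10.3, 10, and 10.9 RPKM. Irf9 and Stat2, subunits of the transcription factor ISGF3, fell by 0.58 and 0.37, and Ifit3 and Gbp3 by 0.87 and 0.83 on the log2 scale. Bst2, the surface protein tetherin, fell from 2.35, 4.46, and 1.35 RPKM to 1, 1.36, and 1.15 RPKM with an overlap. The class I heavy chain genes did not pass, with H2-D1 at 12.2, 11.1, and 9.68 RPKM against 9.61, 10.7, and 9.45 RPKM. The count moved with single mice, to 3 without ICH 2, 11 without ICH 3, and 4 without feb 1.

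Few genes of inflammatory mediators reached the level for description. Of 35 chemokine and cytokine genes 15 were described, of which 2 fell and 0 rose, the adhesion molecule gene Vcam1 (2.04, 2.4, and 1.55 RPKM in the ICH mice and 1.29, 1.32, and 1.32 RPKM in the feb mice) and Ccl27a. Without feb 2, 2 rose and 4 fell. Il1b and Il6 were near 0 in every mouse. Il1b had at most 0.171 RPKM in the 6 mice and 8 reads in any of the 9, and Il6 at most 2 reads. Il18 was at 10.4, 9, and 9.48 RPKM in the ICH mice and 10.8, 9.14, and 9.46 RPKM in the feb mice, a log2 difference of 0.03 with a 95% confidence interval of -0.19 to 0.25. The inflammasome sensor gene Nlrp3 reached at most 0.562 RPKM. Of the inflammasome and NF-kB list 12 of 22 genes were described, and Casp8 alone fell (1.6, 2.98, and 1.33 RPKM against 1.27, 1.04, and 1 RPKM). Of the complement list 12 of 17 were described, and Itgam, the CD11b chain of complement receptor 3, alone fell (4.89, 7.26, and 3.74 RPKM against 3.55, 2.62, and 2.64 RPKM). In the complement list 4 fell without ICH 3 and 0 without ICH 2, where the median log2 difference was 0.02 in place of -0.18. In the inflammasome and NF-kB list 0 fell without ICH 2, without feb 2, or without feb 3. The same held in a fit of the 6 mice alone and with the replicate number as a block. Infiltrating myeloid cells were hardly seen, with 5 of 20 markers described, 0 of which passed. The lysozyme gene Lyz2 was at 8.74, 6.43, and 2.41 RPKM in the ICH mice and 4.24, 2.88, and 2.77 RPKM in the feb mice, and 3 of the 5 fell without ICH 3. Of 16 lymphocyte markers 2 were described, and 0 passed.

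Among genes of activated microglia, 15 of 22 were described, with 1 higher and 2 lower. Apoe, the lipid carrier made by astrocytes and by microglia around lesions, was at 861, 589, and 819 RPKM in the ICH mice and 1025, 1026, and 1010 RPKM in the feb mice (log2 fold change 0.45, adjusted p = 0.38), against 1071, 853, and 1014 RPKM in the sham mice. The feb mice thus differed little from each other in Apoe, and the ICH mice lay below them. Cd9 and B2m fell. Cd68 and Spp1, which mark phagocytic cells, overlapped, with Cd68 at 2.99, 5.47, and 1.91 RPKM against 4, 2.33, and 2.62 RPKM. Without ICH 3, 7 of the 15 fell.

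The globin genes Hbb-bs, Hba-a1, and Hba-a2 fell, and they were the 3 of 7 described erythroid genes that passed. Hbb-bs was at 64.9, 14, and 12.6 RPKM in the ICH mice and 7.67, 7.74, and 7.34 RPKM in the feb mice, beside 13.7, 17.5, and 19.5 RPKM in the sham mice. ICH 1 alone stood above the sham range, and the feb mice lay under all 6 other mice. Alas2, the heme synthesis enzyme of the erythroid lineage, went the other way, at 5.32, 2.77, and 3.45 RPKM in the ICH mice and 3.36, 5.29, and 7.78 RPKM in the feb mice, and overlapped. Of the 7 genes 3 fell without ICH 1, 0 of them as DEGs, against 3 DEGs with all mice. Without feb 1, 1 of the 7 fell, and without feb 3, 1 fell. Hba-a1 and Hba-a2 are nearly identical copies, so how their reads were split is uncertain. The genes that handle heme and iron after a bleed did not differ as a group. Of 18 described among 24 in the table, 1 fell and 0 rose. Hmox1, the heme oxygenase that opens the heme ring, was at 4.6, 6.86, and 1.7 RPKM in the ICH mice and 5.29, 1.29, and 6.86 RPKM in the feb mice, and Ftl1, the ferritin light chain, at 22.3, 28.6, and 18 RPKM against 21.3, 15.4, and 17.1 RPKM. The gene that fell was Trf, the iron carrier transferrin of oligodendrocytes and choroid plexus, at 66.5, 176, and 102 RPKM against 52.8, 79, and 33.1 RPKM. It overlapped between the groups, and 0 of the 18 heme and iron genes fell without ICH 2 or without feb 3.

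Astrocyte markers were split. All 18 were described, 3 rose and 1 fell, with a median of 0.04. Agt, which encodes angiotensinogen, the precursor of angiotensin peptides that astrocytes make in the brain, had the third largest rise of all DEGs without overlap. It was at 22.5, 9.37, and 14.7 RPKM in the ICH mice and 64.1, 30.4, and 52.2 RPKM in the feb mice, a ratio of 3.15 (log2 fold change 1.67, SE 0.37, adjusted p = 0.239). The sham mice, with 34.9, 22.2, and 35.4 RPKM, overlapped both groups. The rise held without any 1 mouse, with log2 differences between 1.36 and 1.98. Gjb6, the gap junction protein connexin 30, rose from 9.07, 6.3, and 5.94 RPKM to 14.2, 9.37, and 12.7 RPKM, and Fgfr3 from 7.81, 7.72, and 7.04 RPKM to 11.8, 9.21, and 12.1 RPKM. Aldh1l1 fell (13.9, 22.3, and 13.9 RPKM against 11.9, 12.5, and 12.2 RPKM). Of the renin-angiotensin list 6 of 13 genes were described, and besides Agt, Ace, the converting enzyme, fell by 0.83 on the log2 scale. Of these 6 genes 0 fell without ICH 1, ICH 2, or feb 2, or with the replicate number as a block.

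Genes of reactive astrocytes were set by ICH 2. Of 25 on the list 13 were described and 1, Nes, fell. The summed level of all 25 was 193.7, 834, and 104.9 RPKM in the ICH mice and 232.8, 99.01, and 205.1 RPKM in the feb mice, and the sham mice had 98.91 to 208.8 RPKM. Gfap was at 128, 573, and 63.3 RPKM in the ICH mice and 160, 54.5, and 137 RPKM in the feb mice, and Serpina3n at 7.7, 77.4, and 2.78 RPKM against 17.9, 3.15, and 18.9 RPKM. The sums of ICH 3 and feb 2 lay near the low end of the sham range, and that of ICH 2 lay far above it. The median log2 difference of the list was -0.58 with ICH 2 and 0.04 without it. Of the 13, 0 fell without ICH 2 and 5 without ICH 3.

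**Figure D3:**
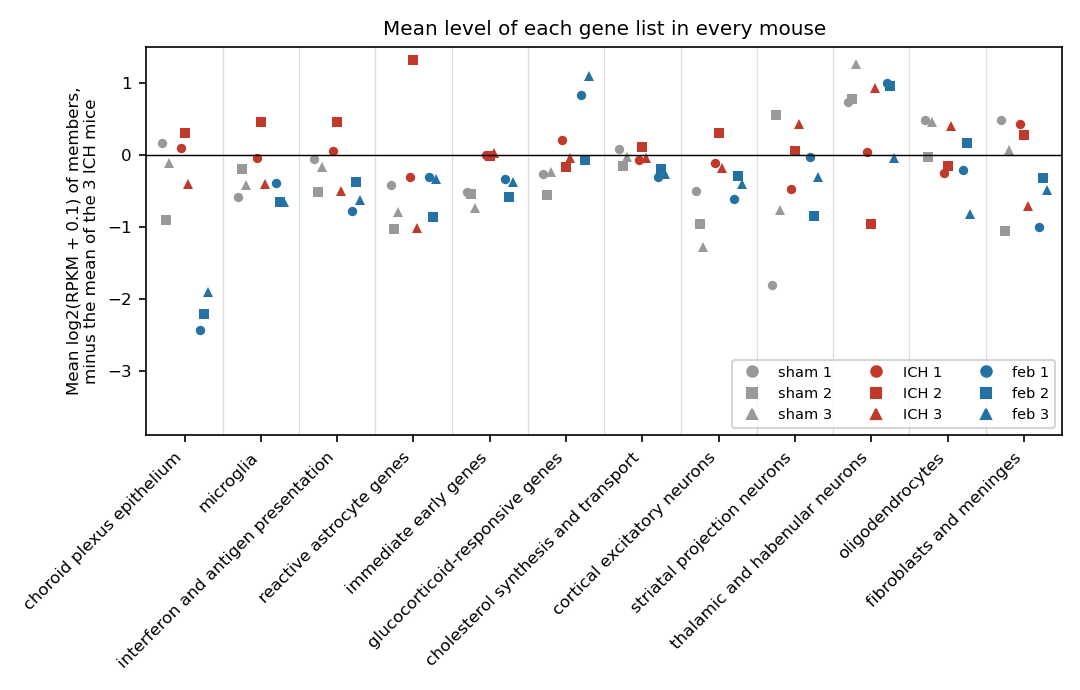
Mean log2(RPKM + 0.1) over the described members of selected gene lists in each mouse (points), drawn as the difference from the mean of the 3 ICH mice, for the sham, ICH, and feb groups. The feb mice lie 2.18 units under the ICH mice on average for the choroid plexus list, of which 7 genes were described through the ICH mice alone, and for the reactive astrocyte list ICH 2 lies above all other mice.

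Immediate early genes, which are transcribed within minutes of neuronal activity or injury, were lower in the feb group. Of 36 genes 33 were described, 14 fell, 4 of them as DEGs, and 0 rose, with a median of -0.40. Between 11 and 17 fell when 1 mouse was left out. The promoters of 4 that fell are shown. They were chosen because they hold TGACG, the short binding motif of the factor CREB, whose known targets include these genes. The motif stands in capitals, written as CGTCA where it lies on the other strand. Each sequence is the 250 bases before the RefSeq start in GRCm38.p6, written 5′ to 3′ in the direction of the gene.
Fos (chr12:85473640-85473889, plus strand): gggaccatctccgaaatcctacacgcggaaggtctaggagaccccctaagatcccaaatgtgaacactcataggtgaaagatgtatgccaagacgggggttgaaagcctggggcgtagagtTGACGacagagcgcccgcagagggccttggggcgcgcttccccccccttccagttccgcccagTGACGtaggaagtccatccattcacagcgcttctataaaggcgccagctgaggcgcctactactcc
Junb (chr8:84978749-84978998, minus strand): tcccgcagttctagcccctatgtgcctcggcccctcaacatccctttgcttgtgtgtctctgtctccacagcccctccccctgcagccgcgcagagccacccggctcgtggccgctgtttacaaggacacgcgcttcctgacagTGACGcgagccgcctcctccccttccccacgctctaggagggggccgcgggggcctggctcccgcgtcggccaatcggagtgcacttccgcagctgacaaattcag
Nr4a1 (chr15:101266596-101266845, plus strand): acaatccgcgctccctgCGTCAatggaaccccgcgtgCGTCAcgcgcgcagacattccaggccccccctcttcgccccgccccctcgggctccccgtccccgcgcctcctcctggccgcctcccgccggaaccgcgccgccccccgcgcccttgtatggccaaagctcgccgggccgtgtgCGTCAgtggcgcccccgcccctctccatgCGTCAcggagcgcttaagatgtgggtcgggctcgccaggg
Nr4a2 (chr2:57124004-57124253, minus strand): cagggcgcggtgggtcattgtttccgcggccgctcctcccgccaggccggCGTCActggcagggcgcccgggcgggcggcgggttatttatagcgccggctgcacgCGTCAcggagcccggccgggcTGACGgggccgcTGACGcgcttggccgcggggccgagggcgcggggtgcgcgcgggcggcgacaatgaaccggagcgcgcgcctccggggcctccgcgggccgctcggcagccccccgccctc

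Of the 14 genes that fell 9 had an entry in the promoter table, and 5 of the 9 held TGACG in these 250 bases on either strand (Fos, Junb, Nr4a1, Nr4a2, and Homer1), as did 18 of the 25 described members with an entry and 19.8% of the 27025 genes with a promoter. The full palindrome TGACGTCA, which contains the short motif, was found in 3 of the 25 (Btg2, Dusp1, and Maff), 0 of which fell, and in 1.77% of all genes. The CArG box, the site of serum response factor, was found in Egr2 and Dusp5, neither of which passed, and in 1.62% of all genes. A match is a stretch of letters and not a measured binding site.

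Arc, whose product moves AMPA receptors out of the synapse, was at 36.5, 29.2, and 52.7 RPKM in the ICH mice and 17, 17.4, and 15.9 RPKM in the feb mice (log2 fold change -1.19, SE 0.22, adjusted p = 0.197), and at 20.3, 19.6, and 13.8 RPKM in the sham mice. Klf10 fell from 4.49, 6.92, and 4.73 RPKM to 2.07, 2.46, and 2.24 RPKM. In both genes the feb values lay within the range of the sham values. The transcription factor gene Fos was at 5.87, 4.64, and 4.61 RPKM in the ICH mice and 2.81, 2.58, and 2.99 RPKM in the feb mice, Junb at 8.24, 9.6, and 8.84 RPKM against 5.89, 5.27, and 6.86 RPKM, and Egr1 at 19.8, 12.6, and 23.9 RPKM against 11.8, 8.75, and 9.03 RPKM. The orphan nuclear receptor genes Nr4a1 and Nr4a2 went from 9.58, 6.9, and 12.9 RPKM to 4.79, 4.29, and 4.96 RPKM and from 5.2, 9.8, and 4.31 RPKM to 2.93, 2.12, and 2 RPKM. All of these had no overlap. The others that fell were Ier5, Trib1, Fosl2, Gadd45b, Homer1, Dusp6, and Ier2. Npas4, Bdnf, Dusp1, and Per1 overlapped between the groups, with Bdnf at 1.73, 2.87, and 1.11 RPKM against 2.08, 1.54, and 1.42 RPKM. The clock genes, which share Per1 with this list, showed 1 fall (Bhlhe40) and 0 rises among 18.

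Genes that glucocorticoids induce were higher in the feb group, and feb 1 and feb 3 carried most of the difference. All 22 were described, 6 rose, 3 of them as DEGs, and 0 fell, with a median of 0.47. Without feb 2 the number that rose was 15 and the median 0.86, and without feb 1 or feb 3 the number was 3, with 0 DEGs in either case and a median of 0.28 without feb 3. Without ICH 3 or in a fit of the 6 mice alone, 4 rose and 1 was a DEG. The metallothionein genes Mt1 and Mt2, which bind zinc and copper and buffer oxidants, rose in all 3 feb mice. Mt1 was at 15.7, 18, and 16 RPKM in the ICH mice and 30.6, 24.1, and 35.6 RPKM in the feb mice (log2 fold change 0.84, adjusted p = 0.178), and Mt2 at 31.7, 44, and 33.8 RPKM against 64.2, 58.7, and 80.6 RPKM. Other members rose in feb 1 and feb 3 alone. Plin4, a lipid droplet protein, was at 2.45, 1.47, and 1.03 RPKM in the ICH mice and 15.2, 1.87, and 17.6 RPKM in the feb mice, and the sulfotransferase gene Sult1a1 at 8.65, 5.98, and 4.89 RPKM against 17.8, 6.28, and 21.8 RPKM. Fkbp5, the co-chaperone of the glucocorticoid receptor, was at 6.62, 7.26, and 4.87 RPKM against 16, 4.44, and 21.3 RPKM and did not pass (adjusted p = 0.527). Cdkn1a, the cell cycle inhibitor p21, was at 1.93, 1.74, and 1.15 RPKM against 7.31, 1.18, and 10.7 RPKM and did not pass either. In both genes feb 2 lay within the range of the sham mice and feb 1 and feb 3 above all others. Hif3a and Gjb6 were the other members that rose. Agrp, Agt, and Xdh were also lower in feb 2 than in the other feb mice. The glucocorticoid response element, the paired site of the receptor, stood in the 250 bases before the start of 4 of the 20 members with a promoter entry (Sgk1, Mt1, Map3k6, and Fam107a) and of 0.44% of all genes. Of the 6 that rose, Mt1 held it.

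**Figure D4:**
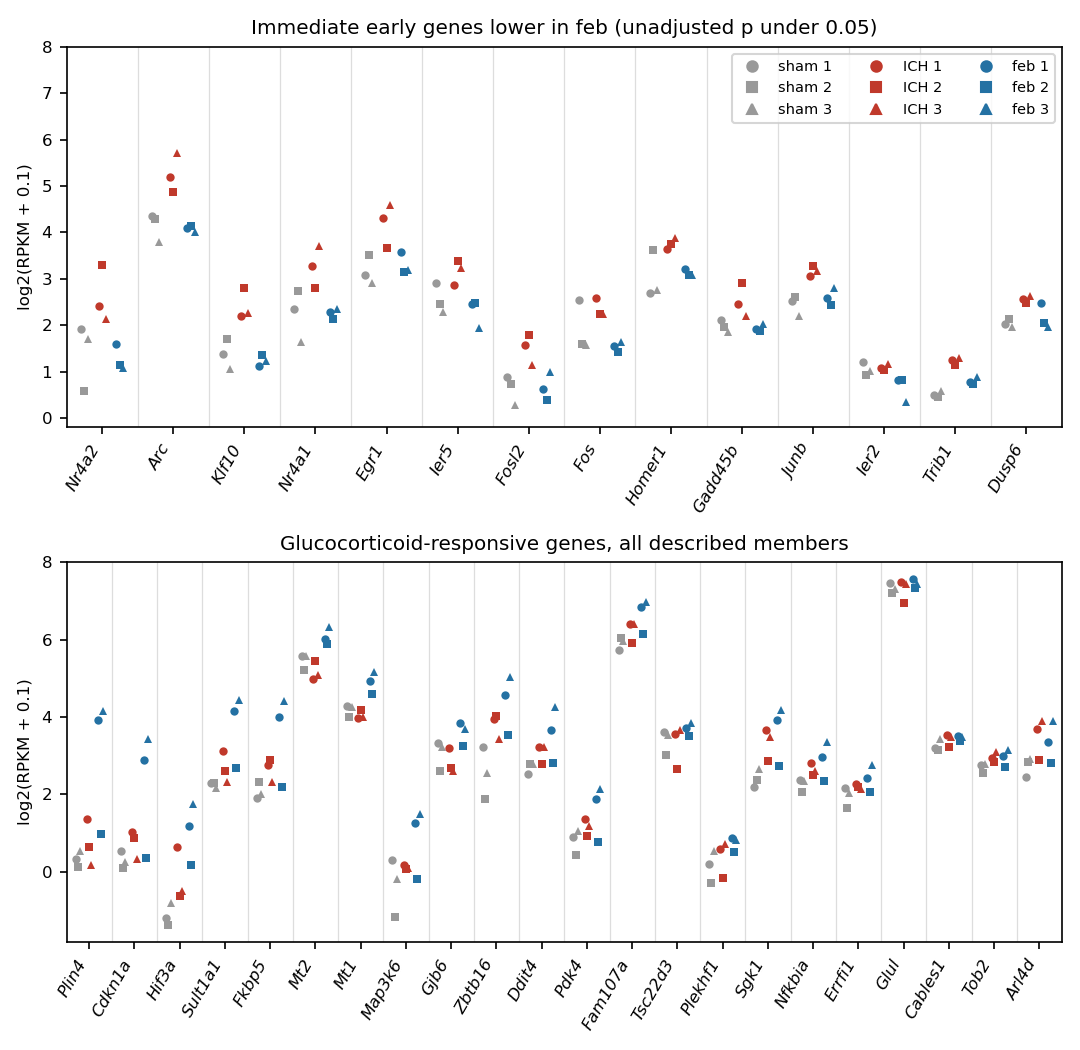
Level, as log2(RPKM + 0.1), in each mouse (points) of the sham, ICH, and feb groups, for the immediate early genes that were lower in the feb group at an unadjusted limma p under 0.05 (top) and for all described glucocorticoid-responsive genes (bottom). The feb mice lie under the ICH mice for Arc and Fos, while for Plin4 and Fkbp5 the points of feb 1 and feb 3 lie above and that of feb 2 among the other groups.

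Genes of cholesterol synthesis fell together and by small amounts. Neurons and glia make their own cholesterol, since little crosses the blood-brain barrier, and the transcription factor SREBP2 drives the enzymes when sterols are short. Of 29 genes 28 were described, 12 fell and 1 rose, with a median of -0.31 and 13 genes below the ICH mice without overlap. Between 9 and 14 fell when 1 mouse was left out. Hmgcs1, the synthase of an early step, fell from 65.3, 91.7, and 74.4 RPKM in the ICH mice to 42.8, 55.8, and 43.2 RPKM in the feb mice (log2 fold change -0.70, SE 0.15, adjusted p = 0.239). For this gene the sham mice, with 76.6, 61.2, and 66.4 RPKM, lay with the ICH mice. Its promoter is shown because it was the only one of the 19 in the table to hold the sterol regulatory element TCACNCCAC (in capitals), which 1.22% of all genes held.
Hmgcs1 (chr13:119690101-119690350, plus strand): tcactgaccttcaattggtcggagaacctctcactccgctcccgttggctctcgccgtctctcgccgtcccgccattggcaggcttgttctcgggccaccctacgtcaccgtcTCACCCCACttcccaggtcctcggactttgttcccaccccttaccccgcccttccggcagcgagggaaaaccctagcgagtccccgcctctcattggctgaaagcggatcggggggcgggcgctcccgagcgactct

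Later steps of the pathway also fell. Sqle, which makes squalene epoxide, went from 5.21, 5.8, and 4.96 RPKM to 3.24, 4.16, and 3.69 RPKM, and Cyp51, the lanosterol demethylase, from 11.9, 15, and 13.6 RPKM to 8.69, 9.97, and 8.67 RPKM. Msmo1, Sc5d, Nsdhl, Idi1, and Fdps fell by 0.62, 0.37, 0.46, 0.61, and 0.47 on the log2 scale. Srebf2, the gene of SREBP2 itself, fell from 19.4, 22.5, and 20.5 RPKM to 14.7, 18.5, and 15.1 RPKM, and Stard4 and Npc2, which move sterols within cells, by 0.53 and 0.33. The exporter gene Abca1 was at 9.04, 7.51, and 6.95 RPKM in the ICH mice against 11.6, 6.18, and 10.8 RPKM in the feb mice and did not pass. The member that rose was Apoe. Without feb 2, 4 members rose and 14 fell.

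**Figure D5:**
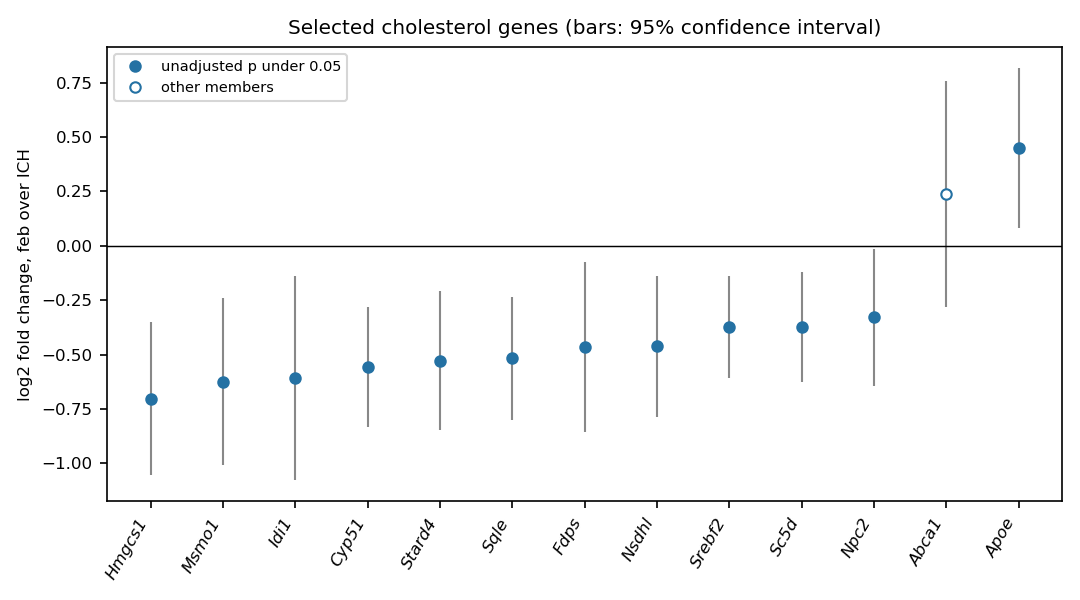
Log2 fold change of the feb group over the ICH group (points) with its 95% confidence interval (bars) for the 13 cholesterol genes described by name, filled where the unadjusted limma p was under 0.05. These 13 were picked by p or after values were seen, and of all 28 described members 12 fell and 1 rose. The 11 filled points below 0 include the synthesis genes Hmgcs1 and Sqle, and the 1 filled point above 0 is Apoe, at 0.45.

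Neuronal markers of brain regions varied widely among mice of the same group. Of 18 markers of cortical excitatory neurons all were described, 6 fell and 0 rose (median -0.53). The vesicular glutamate transporter gene Slc17a7 was at 45.2, 66.2, and 32.6 RPKM in the ICH mice and 19, 30.2, and 30.7 RPKM in the feb mice, and the cortical transcription factor gene Tbr1 at 6.49, 4.62, and 4.76 RPKM against 1.07, 3.37, and 1.63 RPKM. Mef2c, Stx1a, Lmo4, and Emx1 fell as well. In the sham mice, too, these genes were low, with Slc17a7 at 18.5, 17.9, and 11.9 RPKM. The number that fell was 2 without ICH 2 or without feb 1 and 3 without feb 3. Striatal projection neuron markers (18 described) had 0 passing in either direction, and their summed level was 436.9, 729.5, and 868.7 RPKM in the ICH mice and 652.4, 350.9, and 599.7 RPKM in the feb mice. The dopamine receptor gene Drd2 was at 7.26, 11.9, and 16.7 RPKM against 10.6, 6.13, and 8.85 RPKM. Thalamic and habenular markers also had 0 of 18 described members passing, with a median of 0.62. All 19 markers summed to 248.6, 114, and 421.3 RPKM in the ICH mice and 459, 472.3, and 229.1 RPKM in the feb mice. Without ICH 2, the mouse with the lowest sum, the median was 0.14 and 0 rose, without ICH 3 it was 1.10 and 10 rose, and without feb 3 it was 1.02 and 3 rose. The sham mice spanned 202.5 to 967.9 RPKM for the striatal genes. The part of such regional differences in the other results was not tested.

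Of the markers of midbrain, hindbrain, and hypothalamus, 13 of 26 were described and 2 rose. Agrp, the appetite-stimulating neuropeptide of the arcuate nucleus, had the largest rise of the DEGs without overlap, with 2.26, 1.5, and 1.81 RPKM in the ICH mice and 18, 3.95, and 12.2 RPKM in the feb mice (log2 fold change 2.32, adjusted p = 0.219). Its exons overlap those of Ctcf and Gm5914 in the table, and the strand setting of the counting is not given, so its reads and theirs cannot be told apart. Ddc, the decarboxylase of dopamine and serotonin synthesis, rose with an overlap, at 2.83, 1.43, and 1.85 RPKM against 7.61, 2.74, and 7.42 RPKM. Of 11 described hippocampal markers 1 rose, Ociad2 (14.5, 14, and 13.3 RPKM against 19, 19.4, and 17.4 RPKM), and without ICH 2 it was 4. Of 12 interneuron markers Reln alone fell, and of 10 neuroblast markers 0 passed. Among the neuropeptide genes (28 described) Cbln1 rose by 0.80 and Cort, the interneuron peptide cortistatin, which was described through the ICH mice alone, fell by 1.64 on the log2 scale.

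Of 18 oligodendrocyte markers, all described, 0 rose and 1 fell (Trf). Their summed level was 782.9, 859, and 1243 RPKM in the ICH mice and 962.5, 1091, and 655.5 RPKM in the feb mice. The number that fell was 5 without feb 2 and 0 without ICH 2, ICH 3, feb 1, or feb 3. Precursor cells had 1 higher (Lhfpl3) and 1 lower (Enpp6) among 13. Endothelial genes were mixed. Of 18 markers 17 were described, 2 rose and 5 fell. Mfsd2a, the lipid transporter that keeps transcytosis low at the blood-brain barrier, was at 4.52, 4, and 4.04 RPKM in the ICH mice and 9.12, 5.32, and 10.1 RPKM in the feb mice (log2 fold change 0.90, adjusted p = 0.264), and Slc2a1, the glucose transporter of the barrier, rose by 0.35. Pecam1, the platelet and endothelial adhesion molecule CD31, fell from 4.45, 4.34, and 3.99 RPKM to 3.58, 3.01, and 3.2 RPKM, and the VEGF receptor genes Flt1 and Kdr fell by 0.29 and 0.48. Itm2a and Cdh5 were the others that fell. With equal medians or with quantile normalization 2 of the 17 fell. The number was 3 without ICH 1 or without feb 1 and 2 without ICH 2 or without feb 3. The tight junction genes of the endothelium, Cldn5 (9.65, 17.7, and 12.3 RPKM against 13.7, 11.5, and 9.01 RPKM) and Ocln, overlapped, and the scaffold gene Tjp1 fell by 0.25. Over all 25 described genes of the barrier list 2 rose and 6 fell, among them the thyroid hormone transporter gene Slco1c1, by 0.59. Without ICH 2 the number that fell was 2, and without feb 3 it was 3.

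Of 11 pericyte and smooth muscle markers Vtn and Rgs5 fell, with Rgs5 at 20.2, 21.5, and 22.8 RPKM in the ICH mice and 13.5, 19.9, and 12.2 RPKM in the feb mice. In these genes feb 2 lay closest to the ICH mice. Of 13 fibroblast and meningeal markers 1 fell, the growth factor gene Igf2 (12.8, 8.47, and 5.52 RPKM against 3.02, 4.2, and 4.42 RPKM), which the choroid plexus also makes. The number of these markers that fell was 6 without ICH 3 and 0 without ICH 1 or without feb 1. Of 24 genes of the matrix and its proteases 1 rose and 5 fell. Sparc, a collagen-binding glycoprotein of glia and vessels, rose from 99.4, 73.7, and 67.9 RPKM to 154, 101, and 125 RPKM. Mmp17, Adam17, Adam10, Adamts1, and Tnc fell, with Mmp17 going from 14, 15, and 13.4 RPKM to 7.55, 7.54, and 8.36 RPKM. Without ICH 2 the number that fell was 3.

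Xdh, the target of the drug, was at 2.18, 2.29, and 1.31 RPKM in the ICH mice and 2.73, 1.2, and 4.07 RPKM in the feb mice, a log2 difference of 0.33 with a 95% confidence interval of -0.62 to 1.29 (adjusted p = 0.788). The sham mice had 1.2, 0.792, and 1.36 RPKM. A level of RNA does not measure the activity of the enzyme. Of 29 genes of purine breakdown and salvage 21 were described, 3 fell and 0 rose. Entpd1, the ectonucleotidase CD39 that microglia and endothelium carry, fell from 2.98, 3.13, and 2.98 RPKM to 2.15, 2.26, and 1.97 RPKM, and Dck and Nt5c1a by 0.41 and 0.37 on the log2 scale. Without ICH 1 the number that fell was 1. Hprt, the salvage enzyme that returns hypoxanthine to the nucleotide pool, was at 39.5, 41.9, and 38.2 RPKM against 41.3, 34.5, and 39.1 RPKM. Nudt2, the hydrolase of diadenosine tetraphosphate, is on no list. It was at 6.67, 8.14, and 7.5 RPKM in the ICH mice and 4.02, 4.41, and 3.9 RPKM in the feb mice, and its log2 fold change of -0.84 had an SE of 0.10 (adjusted p = 0.0714).

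Targets of Nrf2, the factor that turns on antioxidant genes, and other redox enzymes went both ways, with 27 described, 4 higher and 4 lower. Besides Mt1 and Mt2, the glutathione transferase gene Gstm1 rose from 77, 72.9, and 64.1 RPKM to 96.1, 85.2, and 92.4 RPKM and Srxn1, which repairs oxidized peroxiredoxins, from 18, 18.3, and 18.5 RPKM to 24.8, 21.9, and 21 RPKM. Cat, Prdx1, Slc7a11, and Sod3 fell. Nqo1, a target often used to read Nrf2, was at 2.34, 1.49, and 1.48 RPKM against 1.65, 1.1, and 1.54 RPKM and did not pass. The number that fell was 2 without ICH 1 and 1 without ICH 2, without feb 3, or with equal medians. Of 32 glycolysis and hypoxia genes 2 rose and 5 fell, with the lactate dehydrogenase gene Ldha at 22.6, 32.7, and 20.4 RPKM against 13.1, 16.8, and 16.6 RPKM (0 rose and 3 fell without ICH 2). The large housekeeping groups lay near or under the shares over all described genes. Of 90 nuclear genes of the respiratory chain 5 rose and 6 fell (median 0.01; 1 fell without ICH 2 or without ICH 3, 2 without feb 3 or with equal medians), of 84 cytosolic ribosomal protein genes 1 rose and 3 fell (between 1 and 6 fell with 1 mouse left out), and of 11 mitochondrial genes mt-Co3 fell. Of 26 heat shock and unfolded protein genes 3 fell, Pdia6, Manf, and Hspd1, with 1 left under equal medians and between 1 and 6 with 1 mouse left out. Of 21 apoptosis and p53 genes 1 fell and 1, Bid, rose. Without ICH 3, 3 of these 21 fell, and without feb 2, 3 rose.

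Cell division genes followed ICH 2. Of 28 genes 11 were described and 3 fell, Mki67, Mcm3, and Tpx2. Mki67, the antigen of cycling cells Ki-67, was at 4.85, 10.8, and 2.59 RPKM in the ICH mice and 2.31, 1.98, and 2.01 RPKM in the feb mice, beside 2.1, 2.76, and 2.26 RPKM in the sham mice. Without ICH 2 the number that fell was 1, and without ICH 1 it was 5. Of 62 genes of wnt signaling 44 were described, 8 fell and 1 rose. The genes of the destruction complex and its substrate were among those that fell, by small amounts, with Apc at 61.6, 58.1, and 57.4 RPKM in the ICH mice and 48.8, 47, and 51.1 RPKM in the feb mice, Ctnnb1 (beta-catenin) at 57.3, 59.7, and 60 RPKM against 52.3, 49.1, and 46.5 RPKM, and Gsk3b falling by 0.22 on the log2 scale. The ligand gene Wnt7b fell with an overlap, at 4.04, 8.5, and 2.46 RPKM against 1.98, 2.41, and 2.66 RPKM, and the antagonist gene Sfrp2 rose by 0.43. Each mouse left out brought the number that fell to between 3 and 5, and 3 was reached without ICH 1. Without the trend in the variance estimate it was 5.

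Genes of neuronal channels and receptors are given by family, beside 4.80% of all described genes higher and 8.16% lower. Of 68 potassium channel genes 2 rose and 9 fell (5 rose without ICH 3 and 4 without ICH 1), of which Kcne2 and Kcnj13 belong to the choroid plexus list. Kcnt2, a sodium-activated channel, fell from 3.98, 4.22, and 4.16 RPKM to 2.58, 2.77, and 2.79 RPKM, Kcnv1, a silent subunit of cortical neurons, from 4.26, 4.09, and 3.84 RPKM to 1.68, 1.66, and 2.14 RPKM, and the channel-binding protein gene Kcnip3 from 38.4, 53.2, and 37 RPKM to 26.3, 26.3, and 26.6 RPKM. Of 24 glutamate receptor genes Grm3 and Grik3 fell, of 19 GABA and glycine receptor genes 0 passed, and of 20 receptors for serotonin, dopamine, and acetylcholine Htr7 rose (1.78, 1.31, and 2.26 RPKM against 3.21, 3, and 2.63 RPKM). Of 21 neurotrophic factors 2 rose and 4 fell. Nrtn, neurturin, a survival factor of the GDNF family for dopaminergic and other neurons, was at 0.639, 0.595, and 1.05 RPKM in the ICH mice and 2.03, 1.55, and 1.7 RPKM in the feb mice (log2 fold change 1.14, SE 0.23, adjusted p = 0.219). The sham mice, with 1.85, 1.42, and 1.53 RPKM, overlapped the feb mice and lay above all ICH mice. Fgf1 also rose. Gfra1, a receptor for factors of the GDNF family, fell, as did Ptn, Pdgfa, and Igf2. Ptn, the glial growth factor pleiotrophin, was at 151, 128, and 149 RPKM against 80.8, 117, and 83.8 RPKM. Without feb 1, 1 of the 21 rose and 1 fell.

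The 12 largest rises among the DEGs without overlap held 8 genes known only by a clone or predicted gene name. The named ones were Agrp, Agt, Etnppl, and Scube2. Etnppl, the astrocytic lyase of phosphoethanolamine, rose from 4.5, 1.26, and 3.8 RPKM to 9.02, 6.06, and 8.05 RPKM, and Scube2, a secreted protein that releases hedgehog, from 1.19, 0.385, and 1.54 RPKM to 2.97, 2.31, and 1.7 RPKM. The second largest rise was Gm17952, at 0.437, 0.153, and 0.204 RPKM in the ICH mice and 1.31, 1.48, and 1.39 RPKM in the feb mice, which rests on 3 to 28 reads per mouse and was described through the feb mice. The others were BC039966, Gm35060, Gm45047, Gm9009, Gm12459, 2900060B14Rik, and Gm12536, with log2 differences between 1.22 (Gm12536) and 1.64 (BC039966). Of the 12 largest falls, 8 belonged to the choroid plexus list, most of them described through the ICH mice alone. The rest were 1500015O10Rik, Krt18, Erdr1, and Gm21887. Erdr1 and Gm21887 are near-identical genes whose reads cannot be told apart. Erdr1 was at 65.1, 89.5, and 60.9 RPKM in the ICH mice and 4.5, 23, and 27.2 RPKM in the feb mice, and the sham mice spanned the gap with 8.34, 21.9, and 53.6 RPKM. Abi3bp fell through ICH 1, with 12.7, 1.77, and 1.19 RPKM in the ICH mice and 0.606, 0.736, and 1.07 RPKM in the feb mice. The glycine receptor gene Glra1 (2.79, 1.34, and 2.4 RPKM against 5.76, 11.4, and 3.27 RPKM) and the homeobox genes Irx1 and Irx2, which mark hindbrain and midbrain, did not pass.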

How the data were processed

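Brain RNA of 9 mice, 3 per group, was depleted of rRNA and sequenced with UMIs. Groups were read from the labels. Per the paper's methods, the authors trimmed the reads (Trimmomatic 0.36), merged reads that shared a UMI, aligned them to GRCm38, counted them on exons with featureCounts (Subread 1.5.1), and tested DEGs with edgeR 3.12.1. They deposited RPKM values with the exon length of each gene, which was used as the length limit. Strand setting, annotation release, and handling of reads that match several genes are not given in the sources used here. The RPKM values of the authors were whole multiples of 1 read in 100% of cases (tolerance 0.02), so reads could be recovered. 3 reads on 1 kb of exon equal an RPKM between 0.102 and 0.130, and precision from depth covers counting error only.

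Differences were tested with limma 3.58.1 under R 4.3.3 (two-sided, eBayes with its trend option) on log2(RPKM + 0.1). All 9 mice shared the fit, no block was used, and the 29025 genes that reached 0.1 RPKM in 3 or more mice were tested. P-values were adjusted by Benjamini-Hochberg over these genes. Fold changes on this scale understate the change of low genes. An exact permutation test of 3 against 3 cannot go below 0.1 (two-sided). The paper gives 3 mice per group, and no pair of libraries within the ICH or the feb group agreed within sampling noise. Other pairs were not compared. Gene lists were counted and not tested. The members and lists were chosen with earlier results of these data known. Named genes are, among DEGs whose groups do not overlap, the 12 that rose most and the 12 that fell most, up to 5 members of each list with the lowest p, the genes the study tabulated, Xdh, Il1b, Il6, Il18, Pecam1, and the tissue markers. Further members, the sterol motif, and the gene families of the closing section were chosen after values were seen. Promoters came from RefSeq (GRCm38.p6), and a gene was counted once for a motif on either strand. The counting did not name a use of strand, so reads of overlapping genes cannot be told apart, which concerns, among others, Agrp, Ttr, F5, P2ry12, Cx3cr1, Junb, Mt2, Plin4, Sult1a1, and Kcnj13. Of the genes left out, 1843 reached the level but had exons under 300 bases. At the limit itself, the 515 genes with exactly 3 of 6 values at 1 RPKM had a median RPKM of 1, and the 609 with 2 had 0.877. The script was tested on simulated data. Alternatives were pseudocounts of 1 and 0.01, no filter, described genes only, equal medians, quantile normalization, a fit of the 6 mice, eBayes without a trend, the replicate number as a block, voom on the recovered reads, and each mouse left out. Some genes are not reported here. Python 3.11.15 with pandas 2.3.3 served for the counts of lists and motifs.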

Additional observations from a re-analysis of the deposited data

How the results depend on the processing

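With a pseudocount of 1, which compresses the scale for low genes, 11 DEGs rose and 34 fell, and 44 of the 120 DEGs were called again. With a pseudocount of 0.01, 3 genes passed an adjusted p of 0.05 (1500015O10Rik with adjusted p = 0.0238, Nudt2 with 0.0404, and F5 with 0.0463), against 0 otherwise. Of these, 1500015O10Rik and F5 were described through the ICH mice alone, so that their groups had to differ. With 1 mouse left out, 42 to 87 DEGs rose and 47 to 145 fell, and 467 to 946 genes passed an unadjusted p of 0.05 upward and 820 to 1290 downward. The fewest passed without ICH 2 in both directions, and the most DEGs without ICH 3. The replicate numbers did not pair the mice, since deviations of same-numbered ICH and feb mice correlated at -0.18, -0.17, and -0.35 across genes and those of other pairs at -0.07 to 0.24. With the replicate number as a block 43 DEGs rose and 68 fell, and 678 and 971 genes passed an unadjusted p of 0.05. Of the 161 described genes named here that passed, 0 changed sign under any setting, 1 to 24 lost the threshold under each of the other fits and scalings that lost any, and 20 to 49 did with 1 mouse left out.

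Genes named that did not pass and changed sign with 1 mouse left out had log2 differences between -0.41 and 0.24 (Bdnf), -0.46 and 0.10 (Btg2), -0.60 and 0.06 (C1qa), -0.47 and 0.27 (Cd68), -0.39 and 0.05 (Cldn5), -0.28 and 0.19 (Dusp1), -0.11 and 0.15 (Foxj1), -1.35 and 0.24 (Gfap), -0.61 and 0.65 (Hmox1), -0.12 and 0.01 (Hprt), -0.05 and 0.08 (Il18), -0.49 and 0.09 (Nlrp3), -0.96 and 0.10 (Npas4), -0.12 and 0.02 (Ocln), -1.25 and 1.13 (Serpina3n), -0.01 and 0.71 (Sgk1), -0.34 and 0.43 (Spp1), and -0.04 and 0.80 (Xdh). Equal medians brought Dusp1 to 0.00, Foxj1 to 0.03, Ocln to 0.01, and Spp1 to 0.01, and quantile normalization brought Foxj1 to 0.00. With 3 mice a group and 400 to 465 reads on the median gene, genes near 1 RPKM had larger errors, with a median SE of 0.198 (log2) between 1 and 3 RPKM against 0.110 between 10 and 30 RPKM.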

Other observations

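Pseudogenes leaned to the feb group. Of 833 described pseudogenes 98 rose and 24 fell, and 11 of the 12 DEGs among them were higher in the feb group, while of 12393 protein-coding genes 508 rose and 1148 fell, with 17 DEGs higher and 65 lower. Non-coding RNA genes, 2409 in all, lay between, with 145 higher and 110 lower. Reads of a pseudogene and of its parent gene may not be told apart, since the handling of reads that match several genes is not given.

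Replication-dependent histone genes, whose mRNAs lack a poly(A) tail and are kept by rRNA depletion, were mostly lower in the feb group. This family and the next were picked after their values were seen. Of these 70 genes, 57 were described, 21 fell and 1 rose, with 6 DEGs lower, a median log2 difference of -0.46, and 20 genes below the ICH mice without overlap. With equal medians 19 fell, and with 1 mouse left out between 14 and 31 did. Hist1h4f, a gene of histone H4, was at 13.7, 15.4, and 14.6 RPKM in the ICH mice and 8.79, 9.62, and 7.1 RPKM in the feb mice. Hist1h2bf, of histone H2B, was at 2.13, 4.29, and 2.57 RPKM against 0.819, 1.2, and 0.658 RPKM. Copies of these genes are near-identical, so how their reads were split is uncertain.

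The clustered protocadherins, adhesion proteins that give neurons their surface identity, included many members that were lower by small amounts. Of 57 genes 48 were described, 25 fell and 0 rose, and 37 lay below the ICH mice without overlap, with a median of -0.30. With equal medians 15 fell, and with 1 mouse left out between 12 and 25 did. Pcdhac2 was at 13.3, 13.6, and 13.1 RPKM in the ICH mice and 10.8, 10.8, and 11.1 RPKM in the feb mice. Members of the alpha and of the gamma cluster share their last exons and therefore reads, so these counts are not of independent genes. Zinc finger genes named Zfp showed 31 falls and 4 rises among 332 described, and 18 falls and 10 rises with equal medians.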
